A study of Rattus norvegicus with 32 samples.

Results

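The heat shock chaperones described here were 10 genes measured in the left ventricle of septic and sham-operated rats: Hsph1, Hsp90aa1, Hspa8, Hspa1b, Dnajb1, Bag3, Hspb1, Cryab, Hspd1 and Hspe1. They were found by gene symbol alone, as the probes of the array that carry one of these names, which gave 18 probes of 45598, for 10 genes of the 19247 with a RefSeq symbol. Hspa8 had 4 probes, Hsp90aa1 and Hspd1 had 3 each, Hspe1 had 2 and the others 1. For each gene the probe with the highest mean over all arrays was followed, and its other probes are mentioned where they change a call or a direction.

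The study asked how sepsis and a beta-blocker change the heart's transcripts in each sex. Wistar rats aged 9 to 12 weeks underwent a sham operation or cecal ligation and puncture (CLP), in which the cecum is tied and pierced so that gut bacteria cause sepsis. The third group received landiolol, a short-acting blocker of the beta1-adrenergic receptor, as an infusion started after CLP, while the sham and CLP rats were infused with saline, and the fluid held no antibiotics. All rats had buprenorphine before surgery, imaging of the heart in vivo and then perfusion of the isolated heart before freezing, so every heart, the sham hearts too, had been perfused outside the body before its RNA was taken 20 h after surgery. The RNA of each heart was read on 1 one-colour array, for 5 sham, 5 CLP and 6 CLP plus landiolol rats of each sex, and only RNA of good integrity had been kept. The model is an acute one in young rats whose infection was not treated. The 2 male slides and the 2 female slides were separate, so sex and slide cannot be told apart. In the scanner files, 1 of the female slides carried another extraction protocol name than the other female slide and both male slides.

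Heat shock proteins are chaperones: they bind unfolded or damaged proteins and help them fold, and many are made in larger amounts when cells are stressed. In the cytosol, HSP70 proteins such as Hspa8 work in a cycle with J-domain partners such as Dnajb1 and with nucleotide exchange factors such as Hsph1 and Bag3, and hand some clients on to HSP90. The small heat shock proteins Hspb1 and Cryab hold unfolded proteins without using ATP and are abundant in heart muscle, whereas Hspd1 and Hspe1, also called HSP60 and HSP10, form the folding chamber of the mitochondrial matrix. The stress-induced members are switched on by heat shock factor 1, which binds repeated units of the letters GAA and TTC, the heat shock element.

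The promoters of the members are shown first because these elements are what the genes share in sequence. RefSeq promoter entries for the assembly GRCr8 were matched for 7 members, and there was none in the table used for Hsp90aa1, Hspa1b or Cryab. In the 250 bases before the annotated start, the palindromes GAANNTTC and TTCNNGAA, which read the same on both strands, were searched, and so were 3 units in a row, TTCNNGAANNTTC and its reverse complement GAANNTTCNNGAA. A run of 3 units holds overlapping palindromes by its nature. Capitals mark the matched letters, and each sequence is written 5′ to 3′ on the strand of its gene, for Hsph1 chr12:10427118-10427367 (plus strand), for Hspa8 chr8:50080264-50080513 (plus), for Hspe1 chr9:64084077-64084326 (plus) and for Hspb1 chr12:26432302-26432551 (minus):
Hsph1: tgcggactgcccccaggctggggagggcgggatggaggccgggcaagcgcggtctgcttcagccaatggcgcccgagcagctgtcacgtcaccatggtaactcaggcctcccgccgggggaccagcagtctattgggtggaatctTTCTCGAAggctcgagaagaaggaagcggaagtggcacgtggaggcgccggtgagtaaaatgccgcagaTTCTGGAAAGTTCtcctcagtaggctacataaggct
Hspa8: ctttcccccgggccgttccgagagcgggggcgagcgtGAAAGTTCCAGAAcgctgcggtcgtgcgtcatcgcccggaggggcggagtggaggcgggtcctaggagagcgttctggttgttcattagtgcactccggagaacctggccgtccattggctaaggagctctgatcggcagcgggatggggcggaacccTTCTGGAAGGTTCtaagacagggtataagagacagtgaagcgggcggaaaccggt
Hspe1: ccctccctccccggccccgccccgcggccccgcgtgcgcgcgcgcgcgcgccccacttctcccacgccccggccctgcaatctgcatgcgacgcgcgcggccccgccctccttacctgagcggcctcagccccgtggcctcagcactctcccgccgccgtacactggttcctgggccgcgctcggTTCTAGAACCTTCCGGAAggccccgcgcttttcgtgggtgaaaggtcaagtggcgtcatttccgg
Hspb1: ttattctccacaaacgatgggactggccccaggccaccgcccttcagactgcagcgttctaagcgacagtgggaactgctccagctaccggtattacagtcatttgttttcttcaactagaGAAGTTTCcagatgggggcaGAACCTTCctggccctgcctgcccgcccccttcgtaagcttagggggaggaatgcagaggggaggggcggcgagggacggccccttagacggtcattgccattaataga

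At least 1 palindrome was found in 7 of 7 promoters, against 13.5% of the 33469 promoters in the table. Runs of 3 units were found in 4 of the 7, against 0.663% of all promoters. Hsph1 held 1 such run, from base -36 to -24 counted from the start, and Hspa8 held 2, at -213 to -201 and -55 to -43. Hspd1 and Hspe1 lie head to head with their starts 289 bases apart, and the stretch from -65 to -48 of Hspe1 is the same DNA as that from -242 to -225 of Hspd1, so the 2 overlapping runs in it are counted for both genes. Hspb1 held 2 palindromes apart from each other, at -129 to -122 and -109 to -102, and no run of 3. Dnajb1 had 1 palindrome, at -11 to -4, and Bag3 had 1, at -132 to -125. These are matches of letters and were not tested for binding.

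**Figure D1:**
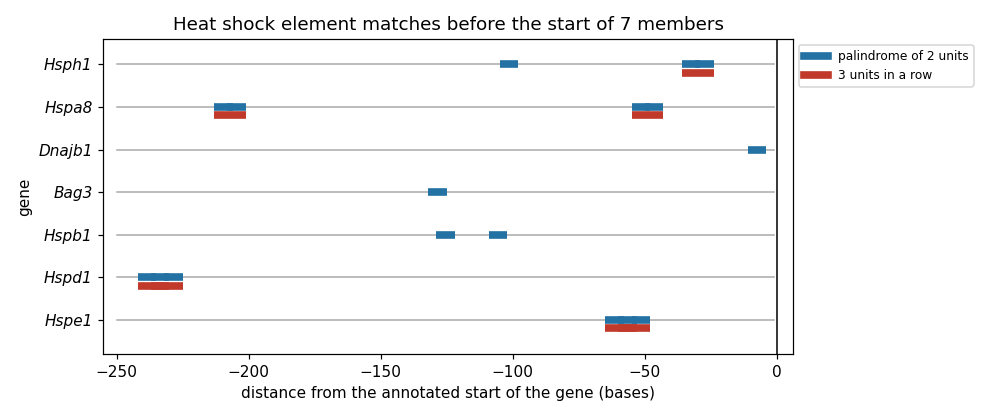
Positions of heat shock element letters in the 250 bases before the annotated start of 7 members, in bases from the start, with palindromes of 2 units in blue and runs of 3 units in red just below them. Hsph1, Hspa8, Hspd1 and Hspe1 hold runs of 3 units, and Hspb1, Dnajb1 and Bag3 hold palindromes alone.

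Levels are log2 values of the background-subtracted signal, set to the same distribution over the 16 arrays of a sex, so a step of 1 is a doubling of signal. They may be compared between arrays for 1 probe and not between probes, and male and female values stand on separate scales. A probe was tested if at least 80% of a group's arrays had it well above its local background, which kept 25866 probes in males and 25395 in females. Of the members, 9 genes and 17 probes were tested in each sex, the gene left out being Hspa1b. Differences were tested with limma, with p-values adjusted by the Benjamini-Hochberg method over all probes kept. They were called at a false discovery rate (FDR) of 1% against sham and of 5% between the septic groups. The study uses these levels for CLP against sham and for landiolol against CLP. The comparison of landiolol with sham was added here, at 1%. The p-values measure the spread between rats of a group. Each array had 34920 to 43155 spots well above background and no saturated spot. The labelled tissue was checked with 6 cardiomyocyte markers, and 6 of 6 were well above background on every array. The 2 atrial markers looked at, Myl7 and Sln, were too, so this check does not tell the chamber of the heart. In bulk tissue, fewer cells of a type and less RNA per cell cannot be told apart.

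In males, 1 of the 9 members tested was higher after sepsis. Hspb1, also known as HSP27, rose 1.99-fold in the CLP group, and no member fell past the threshold. In this comparison 9.5% of the 13490 genes tested by 1 probe each were called, 4.39% as higher and 5.11% as lower, so 1 call among 9 was near the background. The members' log2 fold changes had a median of 0.28, with 6 above and 3 below 0, beside a median of -0.02 over all genes. This rested on 1 array: without male CLP replicate 5 the members' median was -0.02, with 3 above and 6 below 0. Without male sham replicate 1 it was 0.16.

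For Hspb1 (10 spots on the array, chr12:21911494-21911664 of rn4, minus strand), the male sham arrays read 15.28, 16.47, 16.30, 16.33 and 15.76. The male CLP arrays read 16.50, 16.92, 17.20, 17.01 and 17.45, and the CLP plus landiolol arrays had a lowest value of 15.79, a median of 16.23 and a highest of 16.51. Every male CLP array lay above every sham array, as in 14.4% of genes in 1 direction or the other, while the landiolol arrays overlapped both groups. The CLP minus sham difference was 0.99 on the log2 scale (SE 0.23, 95% interval 0.50 to 1.48, limma adjusted p = 0.00816). It was 1.002 and 1.10 within the 2 slides. The call was close to the threshold: it was lost with 6 of 16 other settings and on leaving out any 1 of 11 of the 16 male arrays, where the difference stayed between 0.80 and 1.11.

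In females Hspb1 read 14.89, 16.54, 16.45, 16.68 and 16.50 in sham hearts and 16.72, 17.22, 17.88, 16.71 and 17.47 in CLP hearts. Here too the groups did not overlap, as for 9.88% of genes in this comparison, and sham replicate 1 lay far below the others. The difference was 0.99 (SE 0.37, adjusted p = 0.112 by limma with Benjamini-Hochberg adjustment) and did not pass. Without sham replicate 1 it was 0.65 (limma adjusted p = 0.256). The male minus female difference of the 2 effects was 0.00 with a 95% interval from -0.92 to 0.92, so these data leave room for a difference of nearly the size of the effect in either direction. Cryab, the other abundant small heat shock protein of heart muscle, differed between CLP and sham by 0.00 in males and 0.07 in females (adjusted p = 0.998 and 0.773). Its probe (chr8:54111396-54111455, plus strand) ranked between 4 and 17 of 45598 on each array, where equalising the distributions leaves few possible values, and it ranged from 18.26 to 18.70 in males and from 18.45 to 18.84 in females.

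**Figure D2:**
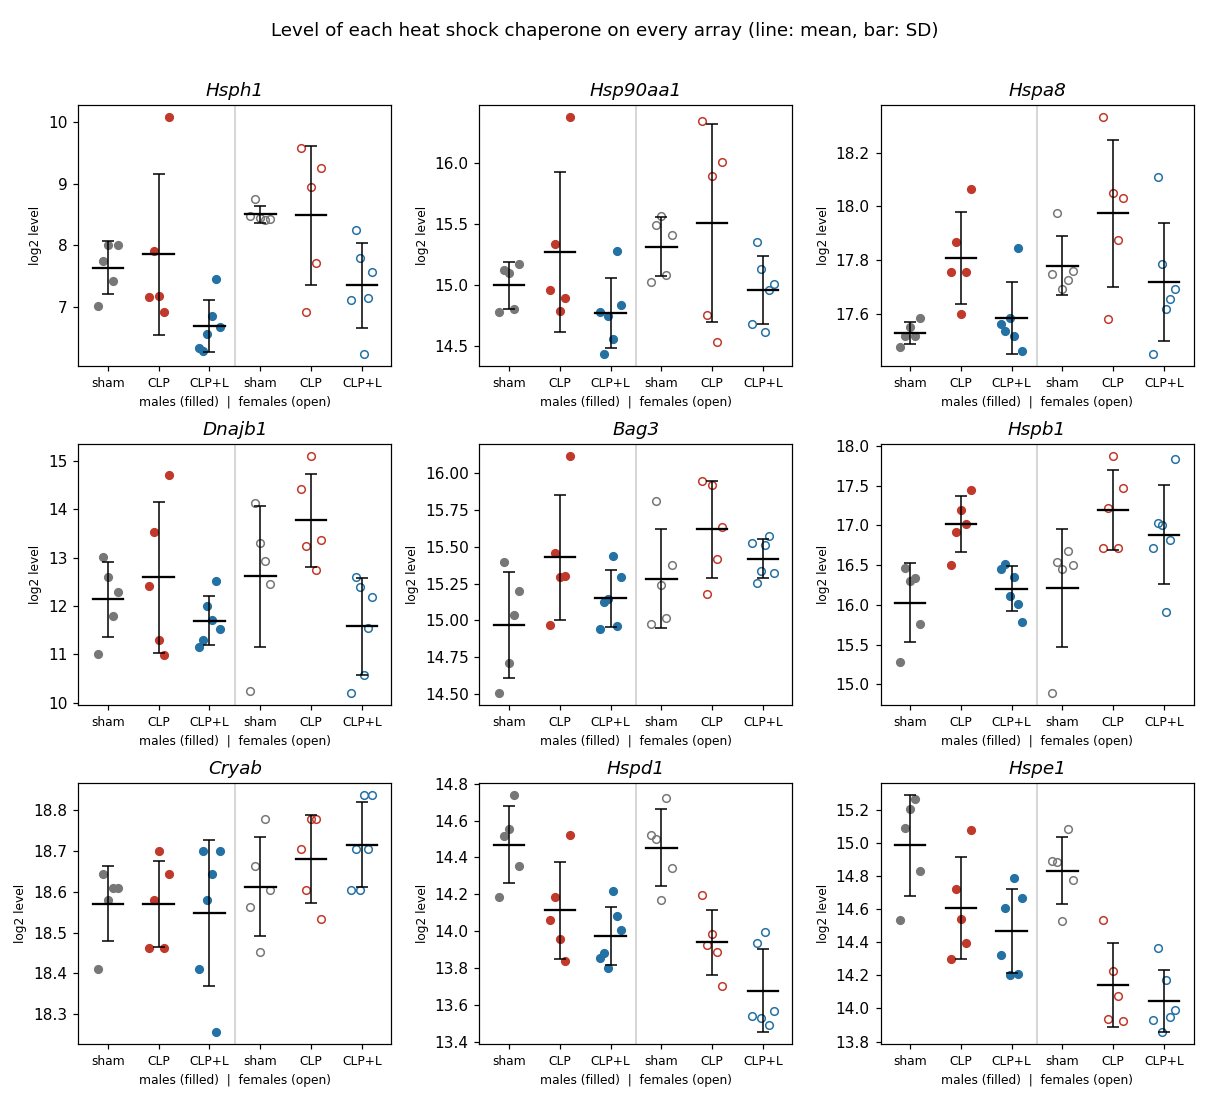
Log2 level of 9 members on every array, with 1 point for each rat, the mean as a line and the SD as a bar, for sham, CLP and CLP plus landiolol (CLP+L), males filled and females open, which stand on separate scales. The Hspb1 points of both CLP groups lie above all sham points of their sex, and the Hspd1 and Hspe1 points of female CLP plus landiolol hearts lie below all female sham points.

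In females, 1 of the 9 members was lower after sepsis. Hspe1, the lid of the mitochondrial folding chamber, fell 1.62-fold in the CLP group, and no member rose past the threshold. In this comparison 4.37% of the 13255 genes tested were called, 2.14% as lower. The members' median was 0.19, with 6 above and 3 below 0, beside -0.02 over all genes, and it lay between 0.06 (without CLP replicate 1) and 0.37 (without CLP replicate 2) when 1 array was left out.

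The female Hspe1 arrays (10 spots, chr9:53898306-53898365 of rn4, plus strand) read 14.89, 14.88, 14.53, 15.08 and 14.78 in sham hearts. They read 14.54, 13.94, 14.22, 14.08 and 13.92 in CLP hearts, and 13.86, 13.97 and 14.37 were the lowest, median and highest values with landiolol. CLP replicate 1 reached just above the lowest sham array, and the other CLP and all landiolol arrays lay below every sham array. The CLP minus sham difference was -0.69 (SE 0.15, limma adjusted p = 0.00849), and the second probe gave -0.67 (adjusted p = 0.00845) with no overlap. Within the 2 slides it was -0.72 and -0.76. Like that of Hspb1, this call lay near the threshold and was lost on leaving out any 1 of 13 of the 16 female arrays, where the difference stayed between -0.79 and -0.63.

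Hspd1 forms the barrel of the same chamber. In female sham hearts its probe (10 spots, chr9:53884211-53884270, minus strand) read 14.52, 14.50, 14.17, 14.72 and 14.34, and in CLP hearts 14.19, 13.92, 13.98, 13.89 and 13.70. With landiolol the lowest, median and highest values were 13.49, 13.55 and 14.00. The CLP values overlapped sham by 1 array, the landiolol values not at all. The CLP minus sham difference was -0.51 (SE 0.15, limma adjusted p = 0.0376), past an FDR of 5% and not of 1%.

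Against sham, the landiolol-treated septic females had 2 of 9 members called, both lower, in a comparison where 6.19% of genes were called and 2.63% as lower. Hspd1 differed by -0.78 (SE 0.14, limma adjusted p = 0.00202) and Hspe1 by -0.79 (SE 0.14, limma adjusted p = 0.00212), 1.71-fold and 1.73-fold lower. The second probe of Hspe1 gave -0.73 (adjusted p = 0.00266). The other probes of Hspd1 gave -0.97 (adjusted p = 0.00513, called) and -0.88 (adjusted p = 0.0220, not called), and all of these probes had no overlap between the groups, as 11.3% of genes did not. Both calls were kept on leaving out any 1 female array, and within the slides the differences were -0.82 and -0.78 for Hspd1 and -0.82 and -0.81 for Hspe1. All 5 female sham arrays lay in 1 row of the slides and all 6 female landiolol arrays in the other, so no row held both groups. With the row as a term, which only the CLP arrays in both rows could set, the differences were -0.54 for Hspd1 and -0.56 for Hspe1, and the limma adjusted p were 0.519 and 0.513. Among the female CLP arrays, which lay in both rows, those in the landiolol row differed from those in the sham row by -0.24 for Hspd1 and -0.23 for Hspe1. Within the sham row the CLP minus sham difference was -0.42 for Hspd1 and -0.60 for Hspe1.

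In males the same pair stood lower in both septic groups without passing the threshold. Hspd1 read 14.18, 14.52, 14.55, 14.74 and 14.35 in sham hearts and 14.06, 14.19, 13.96, 13.84 and 14.52 in CLP hearts, with 13.80, 13.94 and 14.21 as the lowest, median and highest with landiolol. Hspe1 read 14.53, 15.10, 15.21, 15.27 and 14.83 in sham and 14.30, 14.72, 14.54, 14.40 and 15.08 in CLP, and 14.20, 14.47 and 14.79 with landiolol. The groups overlapped in each case, and CLP replicate 5 was the highest of its group for both genes. Against sham, Hspd1 differed by -0.36 in CLP (limma adjusted p = 0.100) and by -0.50 with landiolol (adjusted p = 0.0286), and Hspe1 by -0.38 (adjusted p = 0.177) and -0.52 (adjusted p = 0.0692). In males 0 of 9 members were called between landiolol and sham, where 5.11% of genes were.

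The male minus female difference for Hspe1 after CLP was 0.29 (95% interval -0.18 to 0.77), so the lower Hspe1 of septic females is not shown to be particular to that sex. No probe of 24769 passed the test of a sex difference in any of the 3 comparisons (0% called at an FDR of 5%), while 867 to 1566 had an unadjusted p under 0.05, and the lowest adjusted p among members was 0.903.

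**Figure D3:**
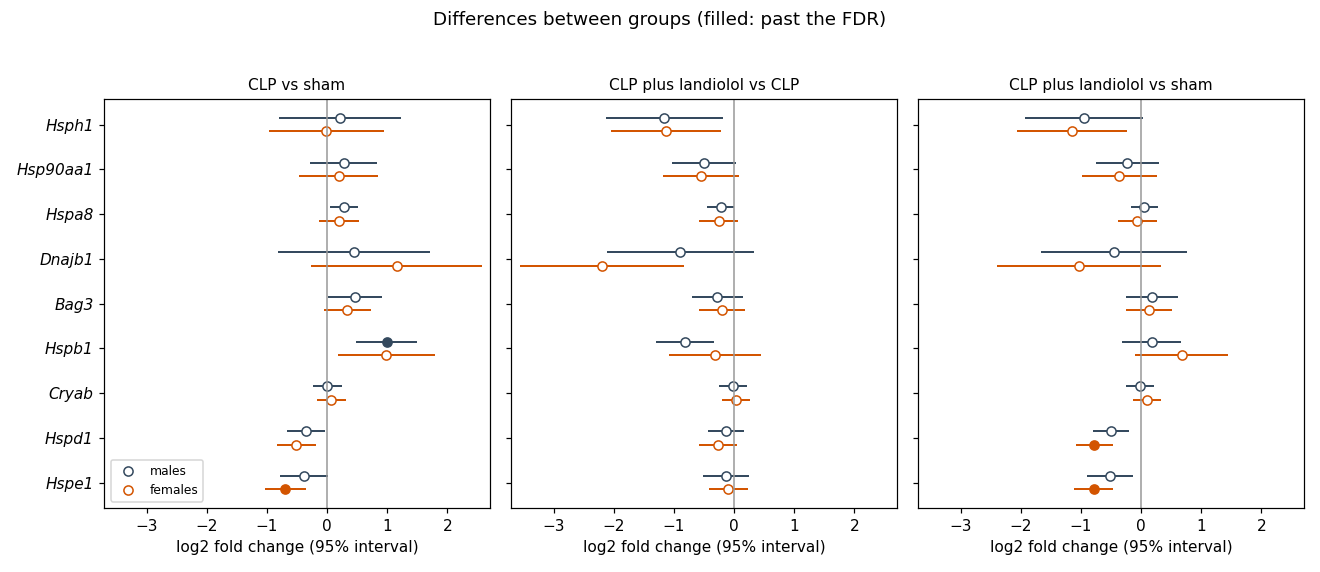
Log2 fold change with its 95% interval for 9 members in the 3 comparisons, males in blue and females in orange, filled where the FDR was passed. Hspb1 in septic males, Hspe1 in septic females and both Hspd1 and Hspe1 in landiolol-treated females against sham are filled, and no point is filled between the septic groups.

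Between the septic groups, the question was whether landiolol changed the chaperones during sepsis. In males 0 of 9 members were called, where 1.85% of genes were, and in females 0 of 9, where 0.113% of genes were. The estimates were below 0 for 9 of 9 members in males (median -0.28, all genes 0.01) and for 8 of 9 in females (median -0.26, all genes 0.04). Without male CLP replicate 5 the male median was -0.16, with 9 of 9 still below 0. Within the slides, the female estimates of Hsph1, Hsp90aa1 and Bag3 were above 0 on 1 slide (0.04, 0.28 and 0.18) and below 0 on the other (-1.91, -1.10 and -0.47). The CLP arrays enter this comparison and that with sham, so these comparisons are not independent. The lowest adjusted p in males was that of Hspb1, whose landiolol minus CLP difference was -0.81 (SE 0.22, limma adjusted p = 0.0827). It was -0.52 and -1.18 within the slides.

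The largest estimate was that of Dnajb1, the J-domain protein that hands clients to HSP70, in females. Its probe (chr19:26214035-26214094, minus strand) read 10.25, 14.13, 13.30, 12.94 and 12.45 in female sham hearts and 14.42, 13.23, 15.10, 12.74 and 13.37 in CLP hearts. With landiolol the lowest value was 10.20, the median 11.87 and the highest 12.59. Every landiolol array lay below every CLP array, whereas the sham arrays spread over the range of both. The difference between landiolol and CLP was -2.19 (SE 0.63, 95% interval -3.54 to -0.85), 4.57-fold lower, with a limma adjusted p of 0.224, so it did not pass. It was -1.61 and -2.51 within the slides. Groups that do not overlap were found for 1.4% of genes in this comparison, and Dnajb1 was the 1 member of 9 with such groups. The female CLP arrays in the landiolol row of the slides differed from those in the sham row by -1.20 for Dnajb1. With the row as a term, which here leaves the 6 landiolol and the 2 CLP arrays of 1 row, the difference between landiolol and CLP was -1.47 (limma adjusted p = 0.943). Between CLP and sham, Dnajb1 differed by 1.16 in females (limma adjusted p = 0.322) and by 0.57 without sham replicate 1.

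In males Dnajb1 read 11.01, 13.01, 12.60, 11.78 and 12.30 in sham, 12.42, 13.53, 11.29, 10.98 and 14.71 in CLP, and 11.16, 11.61 and 12.51 as lowest, median and highest with landiolol. The 3 groups overlapped throughout. The difference between landiolol and CLP was -0.89 (limma adjusted p = 0.485) and -0.36 without CLP replicate 5, and the male minus female difference was 1.29 (SE 0.88, 95% interval -0.52 to 3.10).

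Hsph1, an HSP110 protein that exchanges the nucleotide of HSP70, had its lowest group mean with landiolol in both sexes. The male sham arrays (chr12:5809732-5809791, plus strand) read 7.02, 7.75, 8.00, 7.41 and 8.01, the CLP arrays 7.16, 7.91, 7.18, 6.92 and 10.08, and the landiolol arrays 6.28, 6.62 and 7.45 at their lowest, median and highest. The female sham arrays read 8.48, 8.75, 8.45, 8.41 and 8.42, the CLP arrays 9.58, 6.92, 8.95, 7.71 and 9.26, and the landiolol arrays 6.24, 7.36 and 8.25. The female sham arrays lay close together and the CLP arrays on both sides of them, while all 6 landiolol arrays lay below every sham array, a separation that 11.3% of genes had in 1 direction or the other. Against CLP, the landiolol difference was -1.16 in males (SE 0.45, limma adjusted p = 0.235) and -1.13 in females (SE 0.42, limma adjusted p = 0.390). The male value was -0.60 without CLP replicate 5, and the female value was 0.04 within 1 slide and -1.91 within the other. Against sham, the landiolol difference was -0.95 in males (adjusted p = 0.210 by limma) and -1.15 in females (adjusted p = 0.0888 by limma). No row of the slides held both of these female groups. With the row as a term, the female difference from sham was -1.15 with a limma adjusted p of 0.695.

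The CLP arrays of Hsph1 were spread widely around a mean close to that of sham. The CLP minus sham difference was 0.21 in males and -0.02 in females, with adjusted p of 0.831 and 0.988 by limma. The SD was 1.303 in male CLP against 0.42 in male sham hearts, and 1.12 in female CLP against 0.14 in female sham hearts. In males 1 array carried it, since without CLP replicate 5 the SD was 0.43 and the mean was 7.29 in place of 7.85. In females the CLP minus sham difference was -1.13 within 1 slide and 0.68 within the other, so it had no direction that held in both. Female CLP replicates 1, 3 and 5, the higher arrays, lay on 1 slide. Replicates 2 and 4 lay on the slide with the other protocol name. The part of the slide in the female spread was not tested. The difference in spread was not tested.

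Hsp90aa1, the inducible HSP90 of the cytosol, followed the same arrays. In males it read 14.77, 15.12, 15.10, 14.80 and 15.17 in sham and 14.96, 15.34, 14.78, 14.89 and 16.38 in CLP, with 14.43, 14.76 and 15.28 as the lowest, median and highest with landiolol. In females it read 15.02, 15.49, 15.56, 15.08 and 15.41 in sham and 16.35, 14.75, 15.89, 14.53 and 16.02 in CLP, with 14.61, 14.98 and 15.35 with landiolol. The CLP arrays of both sexes reached above and, in females, also below the sham arrays. The differences from sham were 0.28 in males and 0.19 in females (limma adjusted p = 0.532 and 0.769), and those of landiolol from CLP -0.50 and -0.55 (adjusted p = 0.351 and 0.590). In males the difference from sham was -0.0017 and that of landiolol from CLP -0.22 without CLP replicate 5. Within the female slides the CLP minus sham difference was -0.70 and 0.80, and that of landiolol from CLP 0.28 and -1.10. Between landiolol and sham in males, the probe followed gave -0.23 and the others -0.01 and 0.18, so that the direction differed between probes. The SD in male CLP hearts was 0.66 with replicate 5 and 0.24 without it.

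Hspa8, the constitutive HSP70, had small differences on a narrow spread. The male sham arrays (chr8:43787677-43787736, plus strand) read 17.48, 17.52, 17.55, 17.52 and 17.58, and the CLP arrays 17.76, 17.87, 17.60, 17.76 and 18.06, with 17.46, 17.55 and 17.84 as the lowest, median and highest with landiolol. No CLP array overlapped with sham on this probe, as for 14.4% of genes, and the difference of 0.28 (SE 0.10) had a limma adjusted p of 0.0775. On the other 3 probes the groups overlapped, with differences of 0.09, 0.22 and 0.36. Between landiolol and sham in males, the probe followed gave 0.06, and the others 0.08, -0.20 and -0.50. In females the sham arrays read 17.75, 17.97, 17.69, 17.72 and 17.76 and the CLP arrays 18.33, 17.58, 18.05, 17.88 and 18.03, with 17.45, 17.68 and 18.11 with landiolol, and the groups overlapped. The female difference from sham was 0.19 (adjusted p = 0.487), and the differences of landiolol from CLP were -0.22 in males and -0.26 in females (adjusted p = 0.301 and 0.621, all by limma). Bag3, which binds HSP70 and steers damaged muscle proteins to autophagy, differed by 0.46 in males and 0.34 in females after CLP (limma adjusted p = 0.149 and 0.280), and by -0.28 and -0.20 between landiolol and CLP (adjusted p = 0.530 and 0.773). Its male CLP arrays read 14.97, 15.45, 15.29, 15.30 and 16.11 against 14.51 to 15.40 in sham, so the groups overlapped.

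Hspa1b, a strongly stress-induced HSP70, was not tested. Its 1 probe (chr20:3959493-3959552, plus strand) was well above background on 1 of 32 arrays, male CLP replicate 5, where it read 4.61, and the other 4 male CLP arrays read 2.13 to 2.21. The lowest level of any probe well above background lay between 2.02 and 4.26 over the arrays. The transcript this probe was designed on was not among the RefSeq transcripts of Hspa1b in the table used, so a level not above background on it says little of the gene. Hspa1a, a near-identical copy that was not a member and was looked at after these values were seen, was well above background on all 32 arrays, and probes of such copies can bind each other's RNA. Its male sham arrays lay between 12.64 and 14.99, its male CLP arrays read 14.45, 16.19, 12.93, 12.85 and 17.70, and its male landiolol arrays lay between 13.99 and 15.004. In females the sham arrays read 11.44, 16.45, 15.46, 15.34 and 14.57, the CLP arrays 17.25, 15.35, 17.09, 15.42 and 16.36, and the landiolol arrays lay between 12.18 and 15.61. As for Dnajb1, the highest male array was CLP replicate 5 and the lowest female sham array was replicate 1. Landiolol and CLP differed by -2.13 in females (limma adjusted p = 0.378).

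Male CLP replicate 5 had the highest value of its group for every member but Cryab, for which it was second. Without it the CLP minus sham difference was -0.34 in place of 0.21 for Hsph1, -0.08 in place of 0.45 for Dnajb1 and 0.28 in place of 0.46 for Bag3, and 0.89 in place of 0.99 for Hspb1. Without it the SD of the other 4 arrays was 1.16 in place of 1.56 for Dnajb1, 0.20 in place of 0.42 for Bag3 and 0.11 in place of 0.17 for Hspa8. Hspb1 had a mean of 16.91 without it and 17.02 with it.

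The members did not vary as 1 block. After the group means were taken out, Pearson's r over the 16 arrays of a sex was 0.77 to 0.95 for the 6 pairs of Hsph1, Hsp90aa1, Hspa8 and Dnajb1 in males and 0.52 to 0.88 in females. Hsph1 and Hsp90aa1 had the highest of these, 0.95 in males (rho 0.90, and r = 0.87 without the 2 farthest arrays) and 0.88 in females. Without the 2 farthest arrays, the 6 pairs had 0.63 to 0.87 in males and 0.54 to 0.82 in females. Within single female slides r went as low as 0.25, for Hsph1 with Dnajb1. Hspd1 and Hspe1, which share a promoter, had 0.81 in males (rho 0.74) and 0.90 in females (rho 0.88), and 0.71 and 0.93 without the 2 farthest arrays. Between the 4 cytosolic genes and the mitochondrial pair, r was 0.14 to 0.75 in males and 0.01 to 0.64 in females. Hspb1 was not near the cytosolic genes in males (r = 0.31 with Dnajb1, 0.33 with Hsph1) but had 0.74 with Dnajb1 in females. Without the 2 farthest arrays, r of Hspb1 with Dnajb1 was 0.14 in males and 0.50 in females. These correlations are descriptions, with no p, and their points share arrays, slides and RNA quality.

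**Figure D4:**
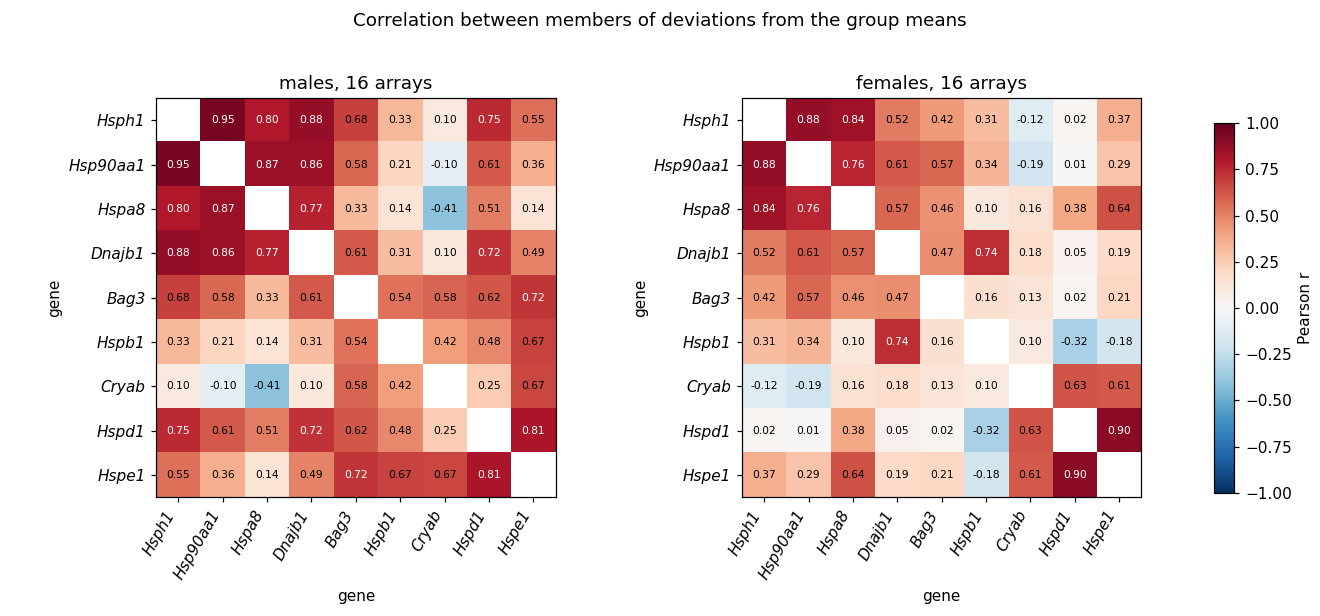
Pearson correlation between members of the deviations from the group means, over 16 male arrays (left) and 16 female arrays (right), with red for positive and blue for negative r. The 4 cytosolic genes at the upper left have r of 0.77 to 0.95 in males and 0.52 to 0.88 in females, and the Hspd1 and Hspe1 cells at the lower right hold 0.81 and 0.90.

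Over all 13071 genes tested in both sexes, the genes most like Hsph1 were chosen by the lower of their 2 correlations over the 16 male and 16 female arrays, group differences included. Hsp90aa1 came first (r = 0.94 in males and 0.88 in females), then Cacybp (0.86 and 0.84), Dnaja1 (0.87 and 0.82), Stip1 (0.73 and 0.74) and Tardbp (0.72 and 0.79). Hsp90aa1 is itself a member, Dnaja1 is a J-domain partner of HSP70, and Stip1 links HSP70 to HSP90. Of the members, Hspa8 ranked 9, Dnajb1 11, Hspe1 68, Hspd1 96, Bag3 255, Hspb1 1485 and Cryab 8569. Cryab was closest to Txndc17 (0.82 and 0.84), Dazap2 (0.84 and 0.81), Slc25a16 (0.83 and 0.80), Armcx6 (0.80 and 0.79) and Polr2k (0.85 and 0.78).

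Other chaperones and their helpers were counted around the members. Of 35 other cytosolic chaperones and co-chaperones, 1 rose and 2 fell in septic males, where 9.5% of all genes were called. Fkbp5, an HSP90 co-chaperone that glucocorticoids induce, rose by 1.22 (limma adjusted p = 0.000201), and its relative Fkbp4 fell by 1.004 (adjusted p = 0.00280). Hspa12a, a distant HSP70 relative, fell by 0.96 (adjusted p = 0.00172). In septic females, where 4.37% of all genes were called, 1 rose and 1 fell, again Fkbp5 (0.90, adjusted p = 0.00743) and Fkbp4 (-1.22, adjusted p = 0.00310). Against sham, landiolol-treated hearts had Fkbp5 higher by 1.39 in males and 0.96 in females (limma adjusted p = 9.11e-05 and 0.00296). Fkbp4 was lower, at -1.26 and -1.50 (adjusted p = 0.000644 and 0.000437). In females Dnaja4, a J-domain protein, was lower by 0.98 (adjusted p = 0.00181). Of all genes, 5.11% were called in this comparison in males and 6.19% in females. No row of the slides held both of these female groups, and the part of the row in these genes was not tested. Between the septic groups 0 of 35 were called in either sex, where 1.85% of all genes were called in males and 0.113% in females. The lowest adjusted p were those of Hspa1l (-0.78, adjusted p = 0.158) and Stip1 (-0.64, adjusted p = 0.238) in males, and of Hspa1l (-1.25, adjusted p = 0.0756) and Cacybp (-0.61, adjusted p = 0.197) in females.

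Of 5 other small heat shock proteins, 1 fell in septic males, where 5.11% of all genes were called lower. This was Hspb3, a muscle member of that family, at -1.63 (limma adjusted p = 0.00167), the opposite way to Hspb1. In septic females Hspb3 differed by -1.03 (limma adjusted p = 0.120). No gene was called in any comparison among 5 heat shock factors and regulators (4 of them tested in females), 8 subunits of the cytosolic CCT chaperonin, 8 other mitochondrial chaperones and proteases or 12 chaperones of the endoplasmic reticulum. Over all genes, the share called ran from 0.113% to 9.5% across these comparisons, so few or no calls would be found in lists of this size. All 8 CCT subunits had estimates above 0 in septic males (median 0.22) and below 0 between landiolol and CLP in males (median -0.32). In septic females 5 of the 8 were above 0 (median 0.06), and all 8 were below 0 between landiolol and CLP (median -0.12). All 12 reticulum chaperones had estimates below 0 in septic females (median -0.44), with Canx at -0.39 and the lowest limma adjusted p, 0.0341. Between landiolol and CLP in females all 12 were above 0 (median 0.29). Males did not share this: 7 were above and 5 below 0 after CLP (median 0.03). Between landiolol and CLP in males 5 were above and 7 below 0 (median -0.10). Over all genes the median was -0.02 for CLP against sham in either sex. Between landiolol and CLP it was 0.01 in males and 0.04 in females. The same CLP arrays enter both comparisons of a sex. Of the other mitochondrial genes, Clpx, a subunit of a matrix protease, came nearest to a call, in septic males (0.75, adjusted p = 0.0163).

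Markers of other cells moved with sepsis. Neutrophil markers numbered 6, of which 2, S100a8 and S100a9, passed the filter, and they passed it through the septic groups. In sham hearts of either sex 0 of the 6 were well above background on all arrays, against 2 in each septic group. The log2 of the summed signal of all 6 was taken on each array, so its sham values lie near background. In males it was 5.37 to 6.17 in sham, 7.22 to 9.69 in CLP and 8.39 to 9.80 in landiolol hearts. In females it was 5.46 to 6.23, 7.60 to 8.88 and 7.61 to 10.2. The neutrophil marker Mpo was well above background on 1 of 16 male and 0 of 16 female arrays. For Cxcr2 and for Camp it was 3 of 16 male and 5 of 16 female arrays, and for Csf3r 3 and 1. Of 5 macrophage markers 1, Cd68, rose in both sexes. Of all genes, 4.39% were called higher in septic males and 2.23% in septic females. The log2 of the macrophage markers' summed signal was 11.7 to 12.2 in male sham and 12.2 to 12.9 in male CLP hearts. It was 11.8 to 12.5 in female sham and 12.1 to 12.8 in female CLP hearts. Of 5 fibroblast markers 3 fell in septic males, where 5.11% of all genes were called lower. The log2 of the fibroblast markers' summed signal overlapped between these groups (15.9 to 16.4 in sham, 15.4 to 16.3 in CLP). In septic females 0 fell, where 2.14% of all genes were called lower. None of 6 cardiomyocyte markers was called. The part of these cells in the differences of Hspb1, Hspd1 and Hspe1 was not tested.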

How the data were processed

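Left ventricle RNA of 32 rats was hybridised to Agilent 8x60K one-colour arrays, scanned by the authors and quantified with Agilent Feature Extraction 10.5, per the submitters' processing notes. The deposited scanner files give each spot's intensity, already background-subtracted, with flags and positions on rn4. The authors' processed values (38875 spots), deposited on a log2 scale, served as an alternative. Sample columns of no listed sample numbered 0.

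Intensities were taken as log2, outlier-flagged spots were left out and replicate spots averaged, and arrays were quantile-normalised within a sex. A probe was kept where at least 80% of a group's arrays had it well above background. Group means of the 3 groups of a sex were fitted with limma 3.58.1 (R 4.3.3, with version 1.17.8 of data.table) without covariates. Sex differences were fitted on all 32 arrays normalised together. The study's methods used SAM. It was run as an alternative with 100 drawn permutations, beside other scalings, backgrounds, filters, weights, slide and row terms, and leaving out each array. The procedure was tested on simulated data.

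Every member was named. From each chaperone list, up to 4 called genes with the lowest adjusted p were picked in each comparison, or up to 2 where none was called. Not every gene picked is named above: single heat shock factors, single CCT subunits and Hspb8, none of them called, are among those left out. For Hsph1 and Cryab the 5 most similar genes were named. Hspa1b had no such neighbours because its probe was not kept. The members and lists were chosen with earlier results of these data known. Group labels carried no replicate numbers, so replicates are numbered in the order of the deposited samples. The number of arrays limits precision.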

Additional observations from a re-analysis of the deposited data

Results flagged for a closer look

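Of 60 sets of arrays (10 members in 6 groups), 10 held 1 array far from the rest of its group, where chance gives about 1 in 20. Hspb1 stood lowest in female sham replicate 1, at 14.89, with the next array at 16.45. Hsph1 and Hspa8 stood highest of the female sham arrays in replicate 2, at 8.75 (next 8.48) and 17.97 (next 17.76). Hspa8 was also highest in male CLP plus landiolol replicate 5, at 17.84 (next 17.58), and Cryab lowest in male sham replicate 1, at 18.41 (next 18.58).

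The other 5 were arrays of Hspa1b, whose probe was near background. It read 4.61 in male CLP replicate 5 (next 2.21), 3.17 in male CLP plus landiolol replicate 5 (next 2.27), 2.71 in female CLP replicate 1 (next 2.35) and 3.16 in female CLP plus landiolol replicate 2 (next 2.32), and it was lowest in female sham replicate 2, at 2.20 (next 2.23). Of these, 1 array was well above background, male CLP replicate 5. Its 4.61, on a probe that entered no comparison, lay above the highest sham level of 2.24.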

How the results depend on the processing

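The 4 called differences kept their direction under every alternative run. The number of members called in septic males went from 1 to 0 without a filter, with only the 2 groups compared, with a slide term, with a row term, with the authors' table and with SAM, where Hspb1 had adjusted p of 0.0160, 0.0259, 0.0108, 0.0131, 0.0108 and 0.0147. In septic females it went from 1 to 0 with only the 2 groups, a row term and SAM (Hspe1 adjusted p = 0.0322, 0.0613 and 0.0230), and to 2 at an FDR of 5%, which added Hspd1. Array weights gave 1 call in place of 0 between landiolol and CLP in males (Hspb1) and 1 in place of 0 between landiolol and sham in males (Hspd1), as did an FDR of 5% in the latter. A row term took landiolol against sham in females from 2 to 0. Leaving out 1 array gave 0 to 1 calls in septic males, 0 to 1 in septic females, 0 to 1 between landiolol and CLP in males, where leaving out sham replicate 1 or CLP replicate 1 added Hspb1, and 0 to 0 in females, 0 to 0 for landiolol against sham in males and 2 to 2 in females, and 0 to 0 for each sex difference. The cause of these changes was not tested. No paired analysis was made, because each array was a different rat that belonged to 1 group. Signal over background limits Hspa1b, and 5 or 6 arrays a group limit all differences.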
